A study of Rattus norvegicus with 16 samples.

Results

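The 10 genes described here encode the core of the interleukin-1 (IL-1) system and the inflammasome: the ligands Il1a, Il1b, Il18 and Il33, the antagonist Il1rn, the receptor genes Il1r1, Il1r2 and Il1rap, the protease Casp1 and the sensor Nlrp3. They were chosen by name and are 10 of the 17245 genes tested. Each was represented by 1 row of the array. RNA came from cells adhering to commercially pure titanium implants that had been placed in the tibiae of 8 male Sprague Dawley rats, and was hybridised to Affymetrix Rat Gene 1.1 ST arrays, which measure transcript levels with short probes spread along each gene. The study compared 2 surfaces: AT-I, which carries nanoscale features, and AT-II, which is microrough without them. For each of day 2 and day 4 after surgery 4 rats were used, and every rat carried the AT-I surface in one tibia and the AT-II surface in the other. Surface and day together gave 4 groups with 4 arrays in each. The 2 implants of a tibia were pooled to obtain enough RNA, so an array is an average over the cells of both. All rats underwent the same bone surgery and received the analgesic ketoprofen, an inhibitor of cyclooxygenases, and the design holds no tissue without an implant. The labels number the arrays 1 to 4 within each group but do not tie a number to a rat.

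IL-1α and IL-1β are alarm cytokines that signal through one receptor, IL-1R1, which needs the accessory protein IL-1RAcP (encoded by Il1rap) to transmit a signal. This step is held back in several ways: the receptor antagonist (Il1rn) occupies IL-1R1 without activating it, and IL-1R2 is a decoy that binds ligand but does not signal. IL-1β and IL-18 are made as inactive precursors that caspase-1 cleaves after an inflammasome, such as that of NLRP3, has assembled, so their transcript levels say nothing of how much active cytokine was released. In healing bone, IL-1 is known as an early signal of the inflammatory phase, made mainly by neutrophils and by monocytes and macrophages, and as a stimulus of osteoclast formation.

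Values are on the log2 scale, where a difference of 1 is a doubling, and brightness on an array is not compared between different genes. Of 120 pairs of arrays, replicates 2 and 3 of AT-II day 2 were by far the most alike: among bright rows (mean above 9) that varied most, their values differed with an SD of 0.109, against 0.294 for the next closest pair. Their mean was therefore used as a single sample, which gives n = 3 in that group and 15 samples altogether. AT-I day 2 replicate 1 stood apart over all rows of the array, with a median correlation of 0.940 with the other arrays, against 0.961 to 0.984 for the others. A pair of samples stood apart in the IL-1 genes. The day 2 samples numbered 1, on AT-I and on AT-II, each held the highest value of their group for 7 of the 10 genes. For Il1a, Il1b, Il1rn, Il1r2 and Nlrp3, differences between days on AT-I are given with and without them. For Il1r1, Il1rap and Il33, ranges over leaving out any 1 sample are given. As a guide to background, 1304 chemosensory receptor genes had a median of 5.20 and a 95th percentile of 6.22. Most markers of the expected cells lay above 6.22 in the mean of every group: 10 of 12 for neutrophils (not Ltf and Ly6g6d), 9 of 9 for monocytes and macrophages and 8 of 9 for osteoblasts (not Phex). Mean levels of the samples ran from 9.53 to 10.44 over 12 neutrophil markers, from 9.78 to 10.56 over 9 monocyte and macrophage markers and from 7.14 to 10.88 over 9 osteoblast markers, while 4 keratinocyte markers, included as a check for skin, lay between 4.22 and 5.03. Marker lists of blood and marrow cells also lay above 6.22. Their sample means were 9.66 to 11.35 for erythroid cells, 9.20 to 10.8 for platelets and megakaryocytes and 7.64 to 9.36 for the B lineage.

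Among the ligands, Il1a and Il1b were high in single samples of every group rather than evenly within a group. On AT-I at day 2, Il1a was 12.17 in replicate 1 and 6.66, 7.28 and 6.80 in replicates 2 to 4. On AT-II at day 2, it was 11.42 in replicate 1, 5.50 in the averaged pair and 5.55 in replicate 4. At day 4, Il1a was 5.83, 8.34, 5.34 and 4.73 in AT-I replicates 1 to 4, and 4.86, 5.10, 6.13 and 8.27 in AT-II replicates 1 to 4. The highest sample of each group therefore exceeded the mean of the others by 5.26 on AT-I and 5.89 on AT-II at day 2, and by 3.04 and 2.90 at day 4. Il1a lay above the 95th percentile of the chemosensory genes in all 4 AT-I samples at day 2, but in 1 of 3 AT-II samples at day 2 and in 1 of 4 samples on each surface at day 4. With an SD of 2.27 over the 15 samples, Il1a varied more than any other of the 17245 genes tested, and Il1b, with an SD of 1.59, ranked 16.

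Il1b followed the same samples at a level clear of background. On AT-I at day 2, Il1b was 13.03 in replicate 1, 9.90 in replicate 2, 10.83 in replicate 3 and 10.15 in replicate 4. On AT-II at day 2, it was 12.53 in replicate 1, 9.09 in the averaged pair and 9.12 in replicate 4. At day 4, it was 8.65, 10.29, 7.78 and 8.17 on AT-I and 7.93, 8.37, 8.60 and 10.49 on AT-II, in replicates 1 to 4. Replicate 2 on AT-I and replicate 4 on AT-II were the high samples at day 4, and each exceeded some day 2 samples of its own surface (replicates 2 and 4 on AT-I, and the averaged pair and replicate 4 on AT-II), so the days overlapped on both surfaces. Across the 15 samples the 2 ligands varied together (Pearson r = 0.96, given as a description of samples that share groups), and r was 0.89 over the 13 samples without the day 2 samples numbered 1.

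**Figure D1:**
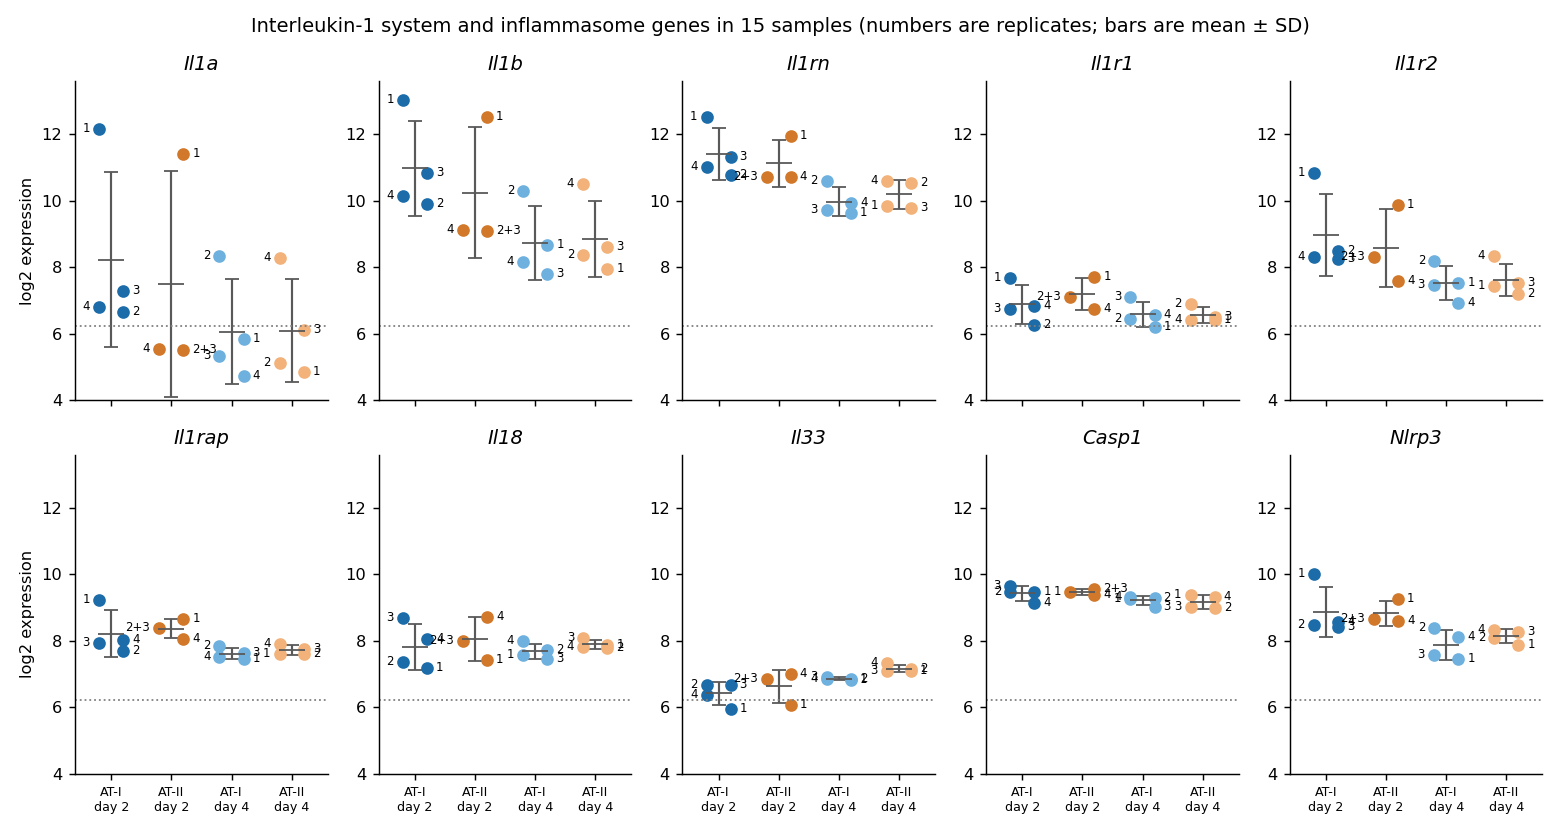
Log2 expression of the 10 genes in each of the 15 samples, with numbers for replicates, bars for the group mean ± SD and a dotted line at 6.22, the 95th percentile of chemosensory receptor genes. Replicate 1 of both day 2 groups stands above its group for Il1a, Il1b, Il1rn, Il1r1, Il1r2, Il1rap and Nlrp3 and below it for Il18 and Il33, whereas Casp1 stays between 8.97 and 9.66.

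From day 2 to day 4, the group mean of Il1b went from 10.98 ± 1.43 (SD, n = 4) to 8.73 ± 1.10 (SD, n = 4) on AT-I, a difference of -2.25 ± 0.84 (SE) that did not pass (limma, Benjamini-Hochberg adjusted p = 0.0949 over all genes). On AT-II it went from 10.25 ± 1.97 (SD, n = 3) to 8.85 ± 1.13 (SD, n = 4), a difference of -1.40 ± 0.90 (adjusted p = 0.587, limma). Il1a differed by -2.17 ± 1.38 on AT-I (adjusted p = 0.314, limma) and by -1.40 ± 1.49 on AT-II (adjusted p = 0.783, limma), with overlapping days in both cases. Leaving out both day 2 samples numbered 1 brought Il1b to -1.57 on AT-I and -0.26 on AT-II, and Il1a to -0.85 and 0.56, which turned the sign of Il1a on AT-II. Leaving out AT-II day 2 replicate 1 alone let Il1b on AT-I pass (-2.25, adjusted p = 0.0466, limma), through the shared estimate of spread. The mean of Il1a was highest on AT-I at day 2, followed by AT-II at day 2, AT-II at day 4 and finally AT-I at day 4, the order for Il1b was the same, and no neighbours in either order differed beyond the spread within groups.

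The regions before the start sites of Il1a and Il1b are shown because these ligands varied together. Both genes lie on the minus strand of rat chromosome 3 in the GRCr8 assembly, and the sequences, from RefSeq, are the 250 bases before each start site, 5′ to 3′. Capitals mark matches, on either strand, to the 5 motifs searched. They were GGRNNNYYCC for the kB consensus of NF-κB, TGANTCA for AP-1, TTGCNNAA for C/EBP, GAGGAA for PU.1 and TATAAA for the TATA box. In these letters N is any base, R is A or G and Y is C or T. The Il1b stretch is chr3:137036582-137036831 and the Il1a stretch is chr3:136990018-136990267.
Il1b: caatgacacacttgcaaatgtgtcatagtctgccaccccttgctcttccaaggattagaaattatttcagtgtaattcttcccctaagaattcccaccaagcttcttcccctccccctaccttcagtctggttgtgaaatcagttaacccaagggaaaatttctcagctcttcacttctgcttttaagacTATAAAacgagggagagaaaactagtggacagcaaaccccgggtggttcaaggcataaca
Il1a: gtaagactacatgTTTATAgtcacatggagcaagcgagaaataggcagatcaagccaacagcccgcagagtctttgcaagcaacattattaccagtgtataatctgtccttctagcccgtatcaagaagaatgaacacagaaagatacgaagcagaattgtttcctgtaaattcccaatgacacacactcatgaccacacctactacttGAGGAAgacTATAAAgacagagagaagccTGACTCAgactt
Il1b held a TATAAA at 60 to 55 bases before the start, and Il1a held one at 32 to 27, a second on the other strand at 237 to 232, an AP-1 match at 12 to 6 and a PU.1 match at 41 to 36. Of all 33469 promoter windows of this length, 12.9% held TATAAA, 6.34% the AP-1 motif and 23.3% the PU.1 motif. The kB motif was in 22.5% and the C/EBP motif in 9.22%. Single matches to the PU.1 and kB motifs are therefore frequent, and those to the AP-1 and C/EBP motifs less so. A match describes the letters only, and binding was not measured.

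Il18 and Il33 did not follow Il1a and Il1b. Il18, the second ligand that caspase-1 activates, was 7.17, 7.36, 8.69 and 8.05 on AT-I at day 2 and 7.42, 8.00 and 8.72 on AT-II at day 2 (replicate 1, the averaged pair and replicate 4). At day 4, it lay between 7.46 and 7.99 on AT-I and between 7.79 and 8.08 on AT-II. The sample numbered 1 was the lowest for Il18 in both day 2 groups, the reverse of Il1b, and the day 4 values fell inside the day 2 range. The differences between days were -0.13 ± 0.30 on AT-I (adjusted p = 0.795) and -0.16 ± 0.32 on AT-II (adjusted p = 0.910, limma).

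Il33, an alarm cytokine kept in the nucleus of stromal and endothelial cells, was the 1 gene of the 10 with a higher mean at day 4 than at day 2 on both surfaces. At day 2, it was 5.95, 6.68, 6.66 and 6.37 on AT-I and 6.06, 6.84 and 6.99 on AT-II, with the sample numbered 1 again the lowest on each. Both samples numbered 1 lay under the 6.22 that serves as a guide to background, and the other day 2 samples lay little above it. At day 4, Il33 was 6.82, 6.85, 6.92 and 6.84 on AT-I and 7.09, 7.14, 7.09 and 7.32 on AT-II. No day 4 sample overlapped the day 2 samples of the same surface, but the differences of 0.44 ± 0.19 on AT-I (adjusted p = 0.144) and 0.53 ± 0.20 on AT-II (adjusted p = 0.243, limma) did not pass. Il33 differed by 0.29 to 0.53 on AT-I and by 0.24 to 0.71 on AT-II when any 1 sample was left out. Among all genes, 11.3% on AT-I and 8.74% on AT-II were higher at day 4 without overlap. All 4 AT-II samples at day 4 also exceeded all 4 AT-I samples (AT-I minus AT-II -0.30 ± 0.19, adjusted p = 0.913, limma), a separation that 1.41% of genes showed in that direction.

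**Figure D2:**
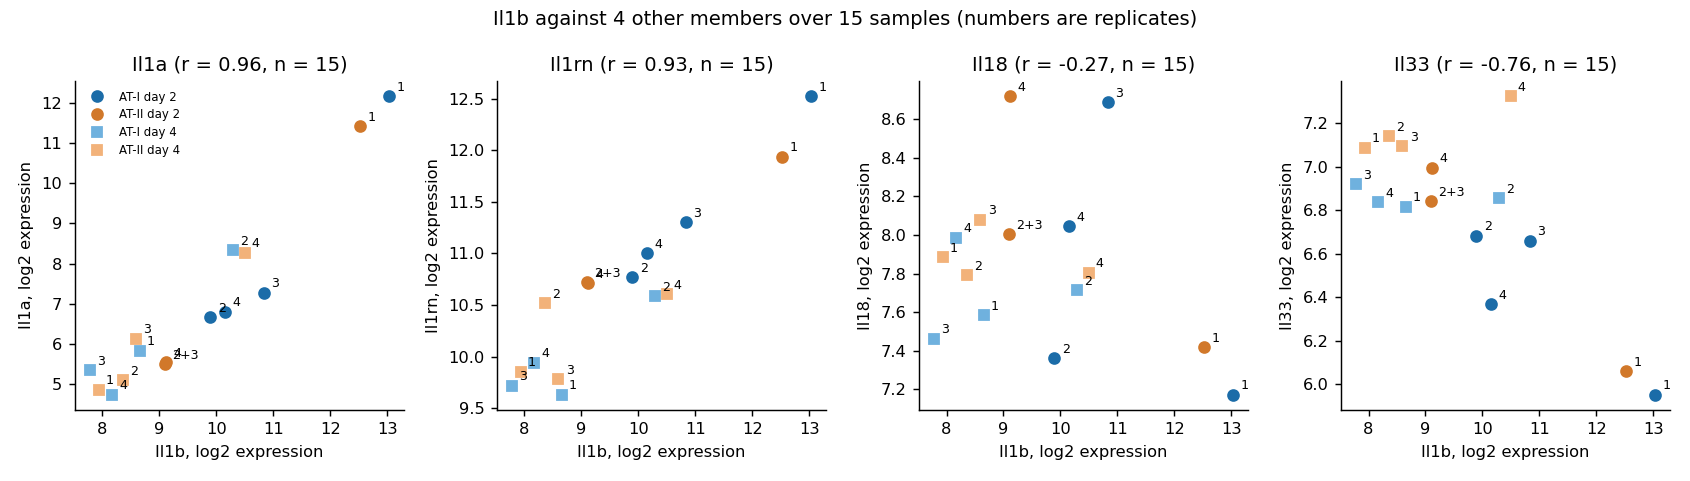
Il1b against Il1a, Il1rn, Il18 and Il33 in log2 expression over 15 samples, circles for day 2 and squares for day 4, with replicate numbers beside the points. Il1a and Il1rn rise with Il1b (r = 0.96 and 0.93), Il33 is lowest in the 2 samples where Il1b is highest, and Il18 is lowest there within each day 2 group.

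The receptor antagonist Il1rn was lower at day 4 than at day 2 on AT-I. On that surface at day 2, it was 12.53 in replicate 1, 10.77 in replicate 2, 11.30 in replicate 3 and 11.00 in replicate 4. At day 4, it was 9.63, 10.58, 9.72 and 9.94, so all 4 samples lay below all 4 of day 2. Il1rn fell by 1.43 ± 0.37 (SE) on the log2 scale, 2.70-fold (adjusted p = 0.0193, limma). On AT-II, it was 11.94, 10.72 and 10.71 at day 2 (replicate 1, the averaged pair and replicate 4) and 9.85, 10.52, 9.78 and 10.61 at day 4, again without overlap, but the difference of -0.93 ± 0.40 did not pass (adjusted p = 0.312, limma). Leaving out both day 2 samples numbered 1 gave -1.06 on AT-I, which passed (adjusted p = 0.0188, limma), and -0.53 on AT-II. Those samples were singled out by the values of these same genes, so this pass is not separate support. The call on AT-I was lost when its day 2 replicate 1 alone was left out (-1.06, adjusted p = 0.0538), and likewise on leaving out its day 4 replicate 1 (-1.32, with an adjusted p of 0.0609) or its day 4 replicate 4 (-1.42, with an adjusted p of 0.0535, limma). It was also lost with the interquartile range of each array, a measure of the spread of its values, as a covariate (-1.37, with an adjusted p of 0.0718, limma). That range was 2.48 to 2.98 on AT-I at day 2 and 2.60 to 3.41 at day 4, and 3.05 to 3.41 on AT-II at day 2 and 3.10 to 3.42 at day 4, and its part in the differences was not tested further.

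The balance of a ligand against its antagonist was followed as the difference of the 2 log2 values within each sample, of which only changes between groups are read. For Il1b minus Il1rn on AT-I, this difference was 0.51, -0.88, -0.47 and -0.86 at day 2 and -0.97, -0.29, -1.94 and -1.77 at day 4. The sample numbered 1 held the highest value of its day 2 group on each surface, at 0.51 on AT-I and 0.59 on AT-II. Between days it changed by -0.82 on AT-I (exact permutation test, two-sided, p = 0.2, adjusted p = 0.6 over 12 tests) and by -0.46 on AT-II (exact permutation p = 0.543, adjusted p = 0.762).

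Il18 was also set against Il18bp, which encodes the secreted protein that neutralises IL-18. Il18bp, which is not one of the 10, was 7.16, 7.75, 8.09 and 8.01 on AT-I at day 2 and 8.12, 9.58, 8.53 and 8.69 at day 4, without overlap (difference 0.98 ± 0.37, adjusted p = 0.0965, limma). Il18 minus Il18bp was 0.067 ± 0.40 (SD, n = 4) at day 2 and -1.04 ± 0.59 (SD, n = 4) at day 4 on AT-I, a change of -1.11 present in all 4 samples against all 4 (exact permutation p = 0.0286, the smallest this design allows, adjusted p = 0.343 over 12 tests). A lone test at that smallest p cannot pass after adjustment over the 12, so a failure to pass is not read as no change. On AT-II the change was -0.87 (exact permutation p = 0.2, adjusted p = 0.6), and the days overlapped.

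The receptor genes differed in how closely they tracked the ligands. The decoy receptor Il1r2, which neutrophils and monocytes carry, was 10.82, 8.50, 8.25 and 8.31 on AT-I at day 2 and 7.52, 8.19, 7.47 and 6.92 at day 4. Every day 4 sample lay below every day 2 sample, but the difference of -1.44 ± 0.54 did not pass (adjusted p = 0.0981, limma). On AT-II, it was 9.86, 8.31 and 7.58 at day 2 and 7.45, 7.19, 7.52 and 8.32 at day 4, with overlap (-0.96 ± 0.59, adjusted p = 0.549, limma). Without the day 2 samples numbered 1 these differences were -0.83 and -0.33. Il1r2 correlated with Il1b over the samples at r = 0.94, or 0.84 over 13 samples.

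The signalling receptor Il1r1 ranged from 6.27 to 7.67 on AT-I and from 6.74 to 7.70 on AT-II at day 2, with replicate 1 the highest of each, and from 6.21 to 7.10 and from 6.41 to 6.90 at day 4. Its differences between days were -0.31 ± 0.27 on AT-I (adjusted p = 0.472) and -0.62 ± 0.29 on AT-II (adjusted p = 0.388, limma), with overlap on both surfaces. With any 1 sample left out, Il1r1 differed by -0.51 to -0.043 on AT-I and by -0.84 to -0.36 on AT-II. Its lowest sample, at 6.21, lay at the chemosensory 95th percentile of 6.22. The correlation of Il1r1 with Il1a, 0.61 over 15 samples, was -0.31 over 13, so it rested on the samples numbered 1.

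The accessory chain Il1rap was 9.24, 7.69, 7.92 and 8.02 on AT-I at day 2 and between 7.46 and 7.84 at day 4 (-0.61 ± 0.25, adjusted p = 0.133, limma). On AT-II, it was 8.64, 8.37 and 8.06 at day 2 and 7.60, 7.59, 7.75 and 7.92 at day 4, without overlap (-0.65 ± 0.27, adjusted p = 0.312, limma). It passed on AT-II when AT-I day 2 replicate 1 was left out (-0.65, adjusted p = 0.0271, limma). With any 1 sample left out, Il1rap differed by -0.78 to -0.27 on AT-I and by -0.79 to -0.50 on AT-II. The difference between signalling and decoy receptor, Il1r1 minus Il1r2, was -3.15, -2.23, -1.49 and -1.47 at day 2 and -1.31, -1.76, -0.37 and -0.35 at day 4 on AT-I. It moved by 1.14 towards Il1r1 (exact permutation p = 0.114, adjusted p = 0.6), and by 0.34 on AT-II (exact permutation p = 0.486, adjusted p = 0.762). The move on AT-I was 0.78 to 1.41 when any 1 sample was left out.

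The sensor Nlrp3 was lower at day 4 than at day 2 on AT-I, while Casp1 differed little between any samples. Nlrp3, whose transcription is induced by NF-κB before the inflammasome can assemble, was 10.00, 8.48, 8.43 and 8.57 on AT-I at day 2 and 7.45, 8.39, 7.56 and 8.10 at day 4. The days did not overlap, and Nlrp3 fell by 0.99 ± 0.31 (SE), 1.99-fold (adjusted p = 0.0485, limma). Without AT-I day 2 replicate 1, the value was -0.62 (adjusted p = 0.107, limma). Without both day 2 samples numbered 1 it was again -0.62 (adjusted p = 0.0754, limma). The fall was thus smaller without that AT-I library, and the call was lost. Lying close to the threshold, it was also lost on leaving out any 1 of AT-I day 2 replicate 4, AT-I day 4 replicates 1, 3 and 4, AT-II day 2 replicate 4 or the averaged pair, and each of the 4 AT-II day 4 samples, with adjusted p from 0.0566 to 0.129 (limma). The Nlrp3 call was lost too with only the compared groups in the fit, and with the interquartile range of each array as a covariate. On AT-II, Nlrp3 was 9.26, 8.64 and 8.59 at day 2 and 7.88, 8.07, 8.27 and 8.32 at day 4, without overlap (-0.69 ± 0.33, adjusted p = 0.400, limma).

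Casp1, the protease that matures IL-1β and IL-18, was 9.46, 9.46, 9.66 and 9.13 on AT-I at day 2, 9.46, 9.55 and 9.37 on AT-II at day 2, 9.25, 9.28, 9.03 and 9.31 on AT-I at day 4 and 9.38, 8.97, 9.03 and 9.31 on AT-II at day 4. Its SD over the 15 samples was 0.201, rank 13477 of 17245 counted from the highest. In the samples numbered 1, where Il1a, Il1b, Il1r2 and Nlrp3 stood highest, Casp1 was 9.46 on both surfaces, inside the range of the other samples. Its differences between days were -0.21 ± 0.13 on AT-I (adjusted p = 0.311) and -0.29 ± 0.14 on AT-II (adjusted p = 0.416, limma).

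**Figure D3:**
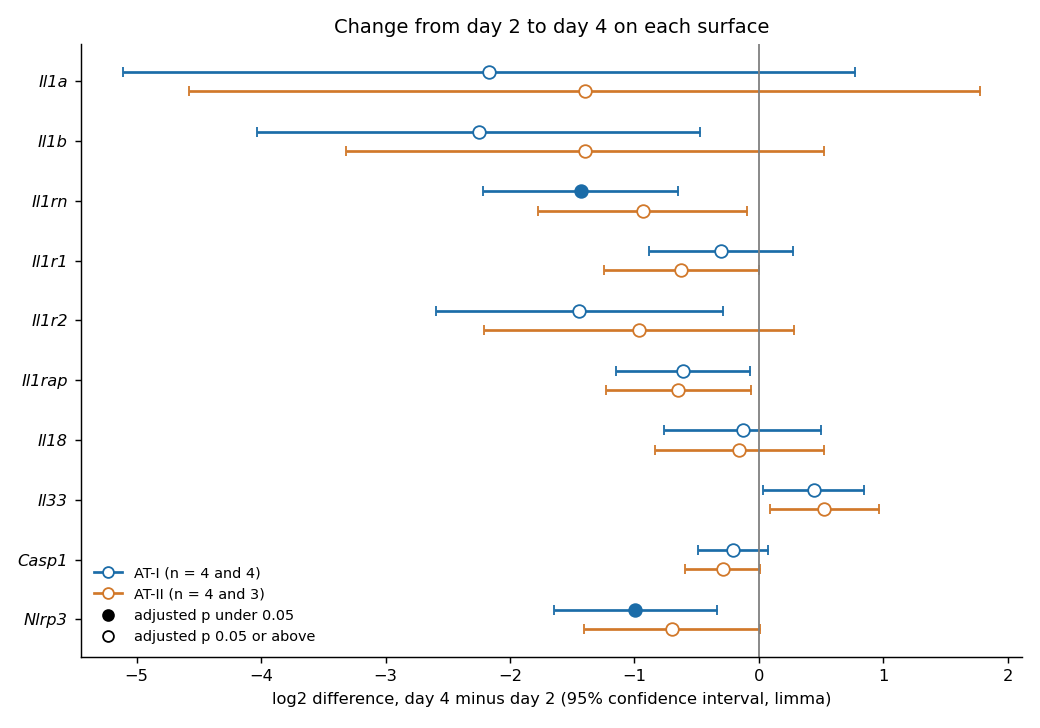
Difference in log2 expression between day 4 and day 2 for each of the 10 genes on AT-I (blue) and AT-II (orange), with 95% confidence intervals from limma and filled points where the adjusted p was under 0.05. Il1rn and Nlrp3 on AT-I are the filled points, and Il33 alone lies above 0 on both surfaces.

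Counted together, 2 of the 10 genes passed between days on AT-I, both lower (Il1rn and Nlrp3), where 11.5% of all genes passed, 2.66% as lower and 8.84% as higher. On AT-II, 0 of 10 passed where 3.33% of all genes did (0.203% as lower and 3.13% as higher). At an unadjusted p under 0.05 there were 6 of the 10 on AT-I and 3 of the 10 on AT-II, against 27.9% and 13% of all genes. The median difference of the 10 was -0.80 on AT-I and -0.67 on AT-II, against -0.047 and -0.052 over all genes, and 9 of 10 were negative on each surface. Centring each array on its own median moved the median of all genes from -0.047 to -0.21 on AT-I and from -0.052 to -0.16 on AT-II. Lower at day 4 without overlap were 3 of 10 on each surface (Il1rn, Il1r2 and Nlrp3 on AT-I, and Il1rn, Il1rap and Nlrp3 on AT-II), against 4.01% and 7.63% of all genes. Leaving out both day 2 samples numbered 1 left 1 call, Il1rn on AT-I, where 8.81% of all genes passed and 1.73% as lower, and 0 on AT-II (1.94%). Those samples had been picked by their values of these genes, so that count is a description. The difference between the 2 time courses was tested directly, and 0 of the 10 genes passed, as did 0% of all genes (707 genes had an unadjusted p under 0.05). The courses share no samples, but both surfaces came from the same rats, which the fit did not take into account. The largest estimate among the 10 was that of Il1b, -0.85 ± 1.23 (95% confidence interval -3.47 to 1.77). The interval leaves room for a difference in either direction.

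Between the surfaces, 0 of the 10 genes passed at day 2 or at day 4 (limma), where 0% of all genes passed at either day. At an unadjusted p under 0.05 there were 0 of the 10 on either day, against 4701 genes at day 2 and 687 at day 4. At day 2, the AT-I minus AT-II difference was 0.74 ± 1.49 for Il1a, 0.73 ± 0.90 for Il1b and 0.28 ± 0.40 for Il1rn, and -0.30 ± 0.29 for Il1r1. Il1b without the samples numbered 1 was 9.90 to 10.83 on AT-I and 9.09 to 9.12 on AT-II, but with 1 of them in each group the surfaces overlapped. At day 4, Il1b differed by -0.12 ± 0.84 and Il1rn by -0.22 ± 0.37. The intervals are wide (-1.19 to 2.65 for Il1b at day 2), so differences of over 2-fold in either direction remained possible for this gene at these sample numbers. With all 16 arrays counted separately, 2193 genes passed at day 2 (12.7%), but still 0 of the 10. At day 2, the interquartile range of a sample was 2.48 to 2.98 on AT-I and 3.05 to 3.41 on AT-II, without overlap. Surface and spread of values therefore cannot be told apart in these day 2 counts.

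The other genes of the pathway were taken from lists that do not overlap with the 10. Of 13 other IL-1 family ligands, antagonists and receptors, 0 passed between days on AT-I (median -0.20) and 0 on AT-II (median -0.12). The smallest p on AT-I belonged to Il18bp, given above, and to Il1rapl1, a receptor-like gene of neurons whose group means of 3.81 and 4.27 lay below the chemosensory median. On AT-II they belonged to Il18bp (0.71 ± 0.40, adjusted p = 0.4995) and to Sigirr, an inhibitory receptor (0.17 ± 0.14, adjusted p = 0.704, limma).

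Of 20 genes of IL-1 receptor signalling, 1 passed on AT-I, where 11.5% of all genes did, and 0 on AT-II, where 3.33% did. Myd88, the adaptor that IL-1 and Toll-like receptors share, fell on AT-I from 9.59 to 9.03 (-0.56 ± 0.12, adjusted p = 0.0081, limma). On AT-II, Myd88 differed by -0.41 ± 0.13 (adjusted p = 0.134) and Irak4, the kinase that MyD88 recruits, by -0.44 ± 0.17 (adjusted p = 0.236, limma). With only the compared groups in the fit 0 of the 20 passed on AT-I, and over all settings 0 to 3 passed on each surface. The list median was -0.12 on AT-I and -0.30 on AT-II.

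Of 19 other inflammasome genes, 1 rose and 2 fell on AT-I, where 8.84% of all genes rose and 2.66% fell. Casp12, a caspase of the inflammatory group, rose by 0.85 ± 0.15 (adjusted p = 0.0019), from a day 2 mean of 5.13 to 5.98, both under the 6.22 that serves as a guide to background. Ninj1, which encodes a protein that ruptures the membrane of dying cells, fell by 0.76 ± 0.14 (adjusted p = 0.0021), and Serpinb1a, which encodes an inhibitor of neutrophil proteases, fell by 0.72 ± 0.21 (adjusted p = 0.0403, limma) with overlapping days. On AT-II, 0 of 19 passed, and Serpinb1a (-0.84 ± 0.23, adjusted p = 0.0653) and Nlrc4, another sensor (-0.65 ± 0.24, adjusted p = 0.228, limma), had the smallest p. In 8 of the 25 other settings 1 or more passed on AT-II, all lower: 5 with array weights and 1 in the others, among them those without AT-I day 2 replicate 1, AT-I day 2 replicate 3 or AT-II day 2 replicate 4. On AT-I, 2 to 6 passed over all settings, with 5 without AT-I day 4 replicate 2. The list medians were -0.11 and -0.14.

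Of 19 genes that IL-1 induces in many cells, 0 rose and 2 fell on AT-I, both encoding chemokines, where 8.84% of all genes rose and 2.66% fell. Cxcl2, which attracts neutrophils, was 13.07, 10.90, 11.78 and 11.63 at day 2 and 7.64, 10.73, 8.83 and 6.59 at day 4, without overlap (-3.39 ± 0.99, adjusted p = 0.037, limma). Ccl2, which attracts monocytes, fell from a mean of 12.18 to 11.06 (-1.12 ± 0.27, adjusted p = 0.0145, limma). Both calls were lost, with 0 of the 19 passing, on leaving out replicate 1 of AT-I at day 2 or at day 4, and 1 passed on leaving out AT-I day 4 replicate 4. There were 6 calls on leaving out AT-I day 2 replicate 2, 5 on leaving out AT-II day 2 replicate 1, and with the interquartile range of each array as a covariate 0. The list median was -0.87 on AT-I, with 18 of 19 negative, and -0.41 on AT-II, with 17 of 19 negative and 0 called. Over all genes the medians were -0.047 on AT-I and -0.052 on AT-II, also under 0. The smallest p on AT-II were those of Cxcl6, another neutrophil chemokine, whose means of 5.85 and 5.44 both lay under 6.22 (adjusted p = 0.308), and Il6, which went from 6.83 to 4.91, the latter under 6.22 (adjusted p = 0.346, limma). In the surface comparisons and in the difference between the time courses, 0 genes of these 4 lists passed.

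The samples that stood apart in Il1b also stood apart in some of the other lists. Over the 19 IL-1-inducible genes, the mean at day 2 was 9.32 in the AT-I sample numbered 1 and 7.76 to 8.39 in the others, and 8.91 in the AT-II sample numbered 1, where the others were 7.70 and 7.45. At day 4, the highest samples were again AT-I replicate 2 at 7.74 and AT-II replicate 4 at 8.00. The neutrophil list was highest in the samples numbered 1 at day 2, at 10.44 on AT-I and 10.36 on AT-II, but the next samples were close, at 10.34 and 10.17. The monocyte and macrophage list was lowest in those 2 samples, at 9.78 and 9.99, against 10.21 to 10.56 in the other day 2 samples. The osteoblast list was also lowest there, at 7.14 and 7.31 against 7.78 to 8.67. The part of cell composition in the Il1a and Il1b values was not tested.

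**Figure D4:**
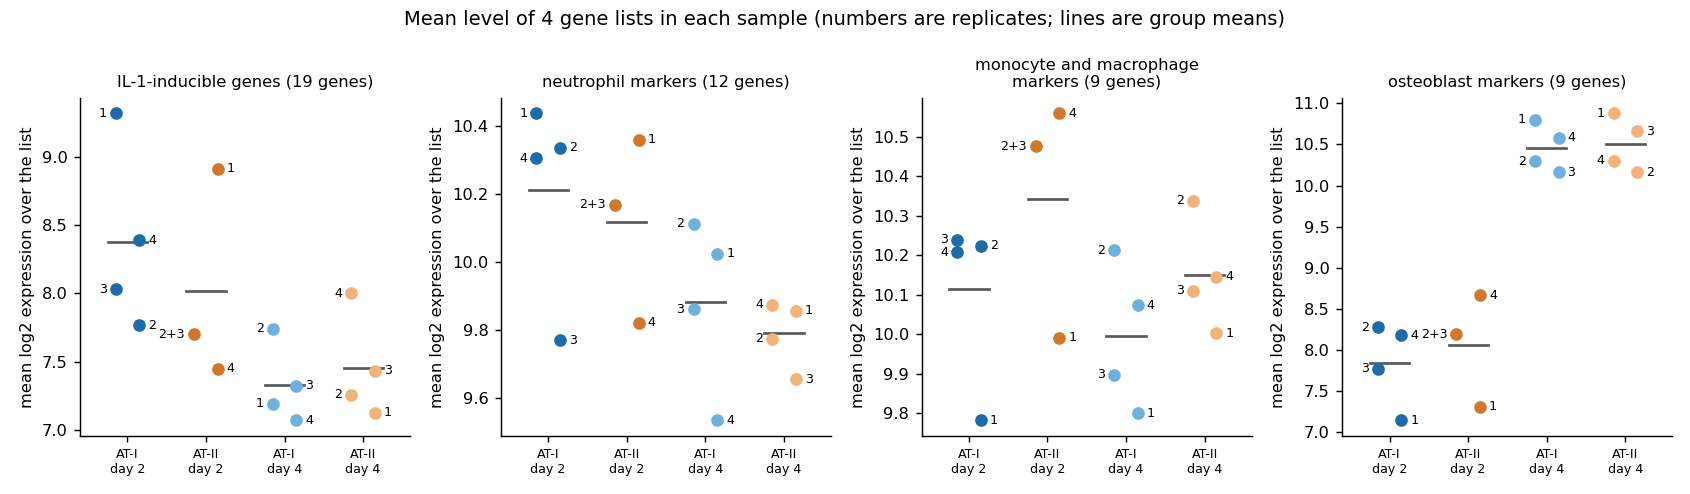
Mean log2 expression in each sample of 19 IL-1-inducible genes, 12 neutrophil markers, 9 monocyte and macrophage markers and 9 osteoblast markers, with replicate numbers and lines at the group means. Day 2 replicate 1 is the highest of its group for the IL-1-inducible list and the lowest for the macrophage and osteoblast lists, and every day 4 sample exceeds every day 2 sample for the osteoblast list.

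Cell type markers moved with time beside the IL-1 genes. On AT-I, 9 of 9 osteoblast markers rose from day 2 to day 4 (median 2.84) and 4 of 7 mesenchymal stromal markers did (median 1.43). The share of all genes that rose there was 8.84%. On AT-II, 8 of the 9 and 2 of the 7 rose (medians 2.58 and 1.35), where 3.13% of all genes did. Phex and Dmp1, genes of mineralising cells, rose by 4.24 ± 0.39 and 3.46 ± 0.36 on AT-I (adjusted p = 1.8e-05 and 3.4e-05, limma). Of 12 neutrophil markers, 1 fell on AT-I, Csf3r (-0.92 ± 0.21, adjusted p = 0.0091, limma). Of 9 monocyte and macrophage markers, 2 fell there, Cd14 (-0.67 ± 0.15, adjusted p = 0.0078) and Fcgr1a (-0.49 ± 0.15, adjusted p = 0.0469, limma). The share of all genes that fell on AT-I was 2.66%. On AT-II, 0 of either list passed, where 3.33% of all genes did. Other monocyte and macrophage markers were higher at day 4 on AT-I without passing (limma): Cd68 (0.40 ± 0.29), Mrc1 (0.37 ± 0.23) and Csf1r (0.10 ± 0.21). The rest of that list was lower there without passing. In 15 of the 25 other settings the monocyte and macrophage count was 1 and not 2, among them those leaving out AT-I day 2 replicate 1 or 3, the averaged AT-II pair, or any 1 of the day 4 samples. The neutrophil list had medians of -0.29 on both surfaces, and its sample means ranged from 9.77 to 10.44 at day 2 and from 9.53 to 10.11 at day 4. In RNA pooled from all adherent cells, fewer cells of a type and less RNA per cell cannot be told apart.

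For each of the 10 genes, the 3 genes with the most similar pattern were found by Pearson r over the 15 samples among 8623 genes at or above the median level. Il1b was nearest to Acod1, which encodes the itaconate-making enzyme of activated macrophages (r = 0.99), Hcar2 (0.98) and Nos2, the inducible nitric oxide synthase (0.97), and over 13 samples without the day 2 samples numbered 1 these were 0.97, 0.94 and 0.91. Il1a was nearest to Ptgs2, which encodes cyclooxygenase-2 (0.96), to Il23a (0.96) and to Il1b. At day 2, Ptgs2 was 11.54 in the AT-I sample numbered 1, where the others lay between 8.30 and 9.22, and 10.76 in the AT-II sample numbered 1, where the others were 7.43 and 6.78. Il1rn was nearest to Olr1, Cebpb and Clec4e (0.98, 0.97 and 0.96), and Nlrp3 to Ier5, Nfkb2 and Emilin2 (each 0.97). All these values stem from samples that share 4 groups and 2 very high members, so they carry no test.

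The receptor genes and the remaining members had other neighbours. Il1r2 was nearest to Dusp1, Arrdc3 and Ell (0.98, 0.98 and 0.97), and Il1rap to Arrdc3, Dusp2 and Map3k8 (each 0.95). For Il1r1, the nearest were Jag1, Ccr1 and Ero1a at 0.84, 0.83 and 0.83, which dropped to 0.50, 0.52 and 0.51 over 13 samples. Il18 was nearest to Dram2, Otulinl and Rras2 (0.90, 0.89 and 0.87), Il33 to Pomgnt1, Mvb12a and Tex264 (0.94, 0.93 and 0.93) and Casp1 to Ptrh2, Nup35 and Pcna (0.89, 0.87 and 0.87). Within the 10, Il1b correlated with Il1rn at 0.93 and with Nlrp3 at 0.87 (0.82 and 0.65 over 13 samples), and with Il33 at -0.76, which was -0.33 over 13 samples.

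Short stretches of the start regions are shown for Il1rn and Nlrp3, the genes that passed on AT-I. RefSeq held 11 promoter windows for 9 of the 10 genes, and the pair for Il1rap overlap. The kB consensus, which can match both strands at one place, occurred before Il1rn, Il1r1 and Il1rap, and these letters were not in the windows of the other 6 genes. In Il1rn (chr3:27520183-27520212, plus strand) the kB match lay 129 to 120 bases before the start, and in Nlrp3 (chr10:44828015-44828040, plus strand) the GAGGAA lay 73 to 68 bases before it.
Il1rn: ggaaatatgaGGGTTTTTCCgcttttcaca
Nlrp3: gtgactgaagGAGGAAgctgaggttg
The capitals mark the matches, and their frequencies over all promoters are those given above.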

How the data were processed

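Gene expression was measured on 16 Affymetrix Rat Gene 1.1 ST arrays of cells adhering to titanium implants. The deposited values are log2 expression; the submitters' processing notes name RMA and Affymetrix Expression Console, and the base of the logarithm is taken from RMA. Over the genes tested, the interquartile range of a sample ran from 2.48 to 3.42, so the samples did not share 1 distribution. Precision is limited by how many arrays each group has.

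Rows were named through the platform annotation, and gene identifiers were looked up in the GRCr8 gene table. Of the rows, 962 name more than 1 gene and 9608 name none; these were not used, and the brightest row stood for a gene. Groups came from the sample titles; since the labels do not tie arrays to rats, p-values measure only the spread between these samples. limma 3.58.1 in R 4.3.3 fitted the means of 4 groups (lmFit and eBayes, two-sided, 11 residual degrees of freedom), with Benjamini-Hochberg adjustment over 17245 genes and a threshold of 0.05. On simulated data (5 sets, 200 of 17245 genes shifted by 1 log2 unit), the fit found 78.6% of the shifted genes for the days on AT-I and 74.2% on AT-II. These shares are averages over the shifted genes. They give no measure for Il1a, Il1b, Il1r2 and Il1rn, whose SD ranked 1, 16, 130 and 275 of the 17245 genes.

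The 10 genes, the other lists, the tests and the averaging of the closely agreeing pair were chosen with earlier results of these data known. Named genes were all 10, from each list the genes that passed (at most 4, by p) or else the 2 with the smallest p, and the 3 nearest by correlation per gene; some are left unnamed. Results were recomputed under 25 other settings: 15 leaving out 1 sample, 9 planned and 1 added after the data were seen. The kB consensus was searched with its degenerate bases, a form chosen after a narrower one had been tried and its matches seen; matches are descriptions without a test. Motifs and figures used Python 3.11.15, with numpy 2.4.6, pandas 2.3.3, scipy 1.17.1 and matplotlib 3.10.9.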

Additional observations from a re-analysis of the deposited data

Results flagged for a closer look

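In 3 of the 30 sets of 1 gene in 1 group of 4 samples that were checked, a single sample lay far from the others by Dixon's gap test, where chance gives about 1 in 20. All were AT-I day 2 replicate 1. Il1a was 12.17 there, against 6.66 to 7.28 in the other AT-I day 2 samples. Il1r2 was 10.82, against 8.25 to 8.50. Nlrp3 was 10.00, against 8.43 to 8.57. AT-II day 2, with 3 samples, was too small for this check.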

How the results depend on the processing

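The 10 genes gave 1240 values under the other settings, of which 1147 kept their direction and side of the threshold, 73 turned sign (0 of them called), 18 lost a call and 2 gained one. Between days on AT-I, the 2 calls became 1 with only the compared groups in the fit, 0 with the interquartile range of each array as a covariate (Il1rn -1.37, adjusted p = 0.0718, limma), 1 without both day 2 samples numbered 1 and 0 to 3 on leaving out 1 sample; on AT-II the count was 0 to 1. Of all genes, those called between surfaces at day 2 were 2193 with 16 arrays, 3823 with 16 arrays and the replicate number as a block, 1 after repeated quantile normalization, 3713 with array weights and 0 to 711 on leaving out 1 sample (711 without AT-I day 2 replicate 2). Between days they were 1060 with only the compared groups, 1314 with the covariate and 1158 to 2954 leaving out 1 sample on AT-I, and 1228 with array weights, 334 without both samples numbered 1 and 223 to 694 leaving out 1 sample on AT-II. The causes were not tested.

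Whether the replicate numbers pair the samples is not settled: the labels do not say so, and same-numbered arrays of the 2 surfaces correlated in their deviations from the group means at -0.26 to 0.64 at day 2 and -0.34 to 0.47 at day 4, with 3 of 4 pairs over 0.1 on each day, and 4 of 8 AT-I arrays correlated best with their own number. With the number as a block, 0 of the 10 genes passed between surfaces at either day, and between days 2 passed on AT-I and 0 on AT-II.

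Uncalled values that turned sign were, for surfaces at day 2, Il1rap 0.11, Il18 0.032 and Casp1 0.16 (repeated quantile normalization), Casp1 0.10 (centring) and 0.12 (covariate) and Nlrp3 -0.12 (without both samples numbered 1); at day 4, Il1a 0.057 (centring), Il1r1 -0.052 (array weights) and -0.21 (covariate), Il1r2 0.019 and Il1rap 0.011 (quantile). Between days they were Il1r1 0.073 on AT-I (covariate) and Il1a 0.56 on AT-II (without both samples numbered 1). For the difference between time courses they were Il1rap -0.015 and Il18 -0.025 (centring), Il1rap -0.10, Il18 -0.12 and Casp1 -0.032 (quantile), Casp1 -0.011 (covariate), and Il33 0.030 (array weights) and 0.044 (without both samples numbered 1).

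Leaving out 1 sample, values that crossed 0 ranged, for surfaces at day 2, from -0.57 to 2.70 for Il1a, -0.10 to 0.68 for Il1rn, -0.23 to 1.02 for Il1r2, -0.48 to 0.034 for Il1rap, -0.54 to 0.11 for Il18, -0.11 to 0.065 for Casp1 and -0.34 to 0.25 for Nlrp3. At day 4 they ranged from -0.79 to 0.70 for Il1a, -0.64 to 0.43 for Il1b, -0.15 to 0.14 for Il1r1, -0.31 to 0.14 for Il1r2 and -0.018 to 0.12 for Casp1. Between days Il18 ranged from -0.34 to 0.16 on AT-I and -0.47 to 0.18 on AT-II, and Il1a from -2.39 to 0.56 on AT-II. For the difference between time courses the ranges were -2.73 to 0.55 for Il1a, -1.12 to 0.14 for Il1r2, -0.14 to 0.38 for Il1rap, -0.31 to 0.34 for Il18, -0.27 to 0.20 for Il33, -0.017 to 0.16 for Casp1 and -0.51 to 0.078 for Nlrp3. Il18 minus Il18bp ranged from -0.0099 to 0.41 between surfaces at day 2 and -0.49 to 0.19 at day 4, and Il1b minus Il1rn from -0.22 to 0.51 and Il1r1 minus Il1r2 from -0.17 to 0.38 between surfaces at day 4. Between days on AT-II, Il1b minus Il1rn ranged from -0.87 to 0.27 and Il1r1 minus Il1r2 from -0.039 to 0.62. Il1a in the 8 samples below 6.22 lay at the level of chemosensory genes, which limits how far its differences can be read.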
